A study of Mus musculus with 21 samples.

Results

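The neuronal pentraxins are a family of 3 genes, Nptx1, Nptx2 and Nptxr, and all 3 have a line among the 21878 gene lines of the deposited table. They were taken by gene symbol as a family. Nptx2 was in view because its level was lower under truncated SK3, so its values in that contrast are given as a description without a test. Nptx1 and Nptx2 passed the low-count filter that left 14968 genes for testing, and Nptxr did not.

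The libraries came from spiral ganglion neurons of mouse cochleae at postnatal day 7, the bipolar neurons that relay signals from hair cells to the brainstem. Each of the 21 Smart-seq2 libraries held about 50 neurons drawn up by micropipette. Every group had received an adeno-associated virus (AAV). The control, labelled WT, carried EGFP, the second condition carried a site-mutated HCN2 channel labelled DN-mHCN2 (here DN-HCN2), and the third carried a truncated SK3 channel. Both channel constructs are labelled dominant negative, meaning that they are meant to impair the cell's own channels of that kind. Apex and base of the cochlea were sampled separately, with 4 libraries each in control apex, control base and DN-HCN2 apex and 3 each in DN-HCN2 base, truncated SK3 apex and truncated SK3 base. Libraries of one group are labelled as biological replicates, with no animals named, so p-values measure the spread between these libraries only. The promoter of the virus and the share of infected neurons are not given in the sources used here.

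Library totals ran from 10411634 to 15138780 counts. All 10 listed neuron markers had counts in every library, their sum ran from 7907 to 15833 CPM (counts scaled to a library total of 1000000), and edgeR called none of the 10 under either construct over both regions. Under DN-HCN2 it called 2 of 11 glia markers lower, 2 of 9 supporting cell markers higher and 1 of 4 erythrocyte markers lower. Of all tested genes, it called 2.45% higher and 3.61% lower there. Under truncated SK3 it called none of the markers of these 3 kinds, beside 0.735% of all tested genes. The summed erythrocyte markers ran from 16.4 to 2442 CPM under DN-HCN2 and from 5.21 to 1070 CPM in control, so the 1 lower call does not stand for a lower sum. Markers of Schwann and satellite glia, which wrap these neurons, were present in every library too, with sums from 9138 to 40587 CPM. Macrophage markers summed to 1267 and 1355 CPM in 2 DN-HCN2 base libraries (replicates 2 and 3) and to at most 416.1 CPM in control, and supporting cell markers to 10280 CPM in replicate 1 of DN-HCN2 apex. The mouse gene Hcn2 spanned 9.84 to 89.8 CPM in the 8 control libraries and 14.6 to 121.8 CPM in the 7 DN-HCN2 libraries, and Kcnn3, which encodes SK3, stayed at or below 1.94 CPM everywhere. Neither gene separates its construct's libraries from control, and whether reads of the viral inserts could be counted in these lines is not given in the sources used here.

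Neuronal pentraxins are secreted or membrane-bound proteins of glutamatergic synapses. Nptx1 and Nptx2 (also called Narp) are released from neurons, form mixed multimers and bind the outer domain of AMPA-type glutamate receptors, gathering the receptors at synapses. Nptxr is anchored in the membrane by its amino-terminal end and can join the same multimers. Nptx2 is known as an activity-regulated gene in the brain, whereas Nptx1 is regarded as less dependent on activity.

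The 3 genes share the carboxy-terminal pentraxin domain, and the stretch around the pentraxin family signature is shown because reads of one member must differ enough from another's to be counted apart. Each stretch has 84 bases in GENCODE M21 transcripts on GRCm38, lies in exon 4 of 5 within the coding sequence, and has the 24 bases of the signature in capitals. Nptx1 (ENSMUSG00000025582.4, minus strand) spans chromosome 11 from 119538719 to 119547753, and its stretch is chr11:119543266-119543349. Nptx2 (ENSMUSG00000059991.7, plus strand) spans chromosome 5 from 144545902 to 144557478, and its stretch is chr5:144555309-144555392. Nptxr (ENSMUSG00000022421.19, minus strand) spans chromosome 15 from 79786351 to 79804766, and its stretch is chr15:79790350-79790433. The signature starts at codon 314 of 432 in Nptx1, 309 of 429 in Nptx2 and 374 of 493 in Nptxr.
Nptx1: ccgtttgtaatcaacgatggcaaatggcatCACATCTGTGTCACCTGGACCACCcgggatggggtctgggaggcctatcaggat
Nptx2: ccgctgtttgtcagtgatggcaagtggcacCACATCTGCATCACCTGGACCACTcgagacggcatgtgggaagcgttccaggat
Nptxr: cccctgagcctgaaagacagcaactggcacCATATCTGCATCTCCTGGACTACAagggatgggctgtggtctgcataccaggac

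Over these stretches Nptx1 and Nptx2 had 75% of bases in common, Nptx2 and Nptxr 69%, and Nptx1 and Nptxr 66.7%. Over the aligned coding sequences the identities were 68.2%, 66.8% and 66.6% in the same order, and the longest run of matching bases in any pair was 19. No 50-base stretch of the Nptx1 or Nptx2 transcript occurred in another annotated gene. Nptxr differed in this respect, with 17.1% of its 50-base stretches also present in Npcd, a gene on the same strand that joins exons of Cbx6 to exons of Nptxr and holds the printed Nptxr stretch as well.

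Nptx2, the activity-regulated secreted member, was the only one of the 3 with counts in all 21 libraries. Control apex libraries had 13.9, 18.6, 9.28 and 6.39 CPM, and control base libraries 12.1, 10.95, 11.5 and 16.4 CPM. Under truncated SK3 the apex libraries had 0.352, 0.215 and 0.252 CPM and the base libraries 0.204, 1.05 and 0.290 CPM. The highest truncated SK3 library therefore lay below the lowest control library in both regions, without overlap. Those 6 libraries held between 2 and 13 Nptx2 counts each, against 92 to 241 in the 8 control libraries.

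Group means of Nptx2 were 12.1 ± 5.36 CPM (SD, n = 4) in control apex and 12.7 ± 2.49 (SD, n = 4) in control base. They were 0.273 ± 0.0707 (SD, n = 3) in truncated SK3 apex and 0.515 ± 0.465 (SD, n = 3) in truncated SK3 base. In summed counts, truncated SK3 had 28 and control 1346, which makes Nptx2 30.6-fold lower per scaled library total (exact 95% counting interval 21.1 to 46.2; counting error only). By region the ratio was 43.9-fold in the apex (interval 23.7 to 92.0) and 23.05-fold in the base (interval 14.5 to 39.1). Reads were not collapsed by molecular identifiers, so counts may include amplified copies, and counting intervals and limits here and below can be too narrow. The intervals also leave out the spread between libraries, since counts were summed over groups. In samples of pooled neurons, fewer expressing cells and less RNA per cell cannot be told apart.

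**Figure D1:**
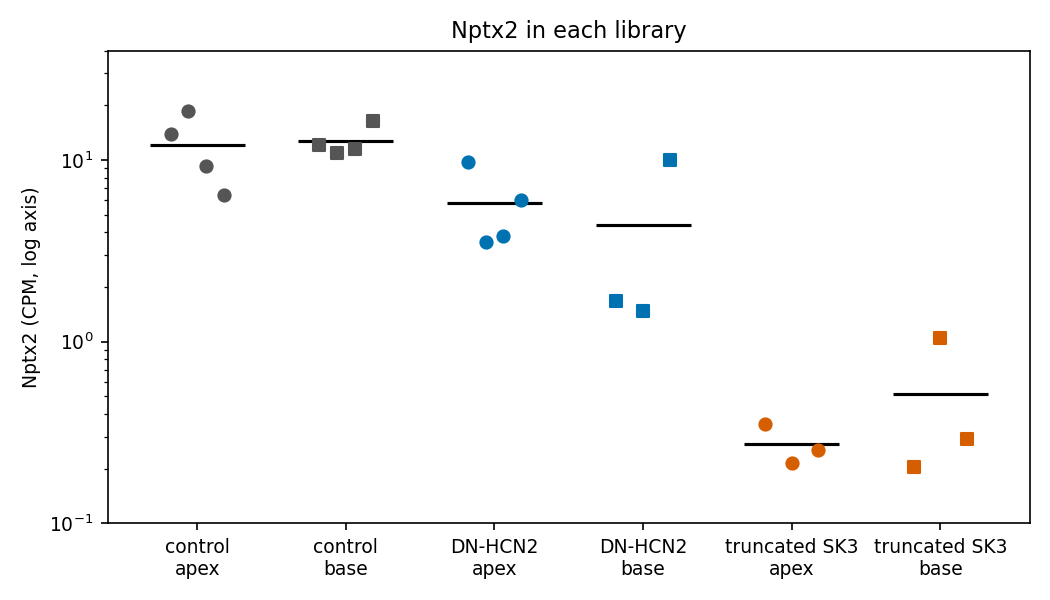
Nptx2 in each of the 21 libraries (points, CPM on a log axis) by group, with the group mean as a line, circles for apex and squares for base. The 6 truncated SK3 libraries sit between 0.204 and 1.05 CPM, below every control library (6.39 to 18.6 CPM), and the DN-HCN2 libraries spread from 1.48 to 10.0 CPM.

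As fitted across all genes, the log2 fold change of Nptx2 under truncated SK3 was -5.42 (SE 0.867) in the apex, -4.58 (SE 0.822) in the base and -5.00 (SE 0.597) as the mean of both regions. Over both regions it was the 35th of the 14968 fitted genes from the largest fall. At a false discovery rate of 0.05, edgeR called 0.254% of those genes in the apex and 0.147% in the base. Over both regions it called 0.735%, and nothing is read from these shares for Nptx2, which was chosen on this contrast. Likewise for description, all truncated SK3 libraries lay below all control libraries in 6.77% of tested genes in the apex, in 4.55% in the base and in 0.681% with the regions pooled. Leaving out replicate 2 of truncated SK3 base, which holds 13 of the 18 counts of its group, moved the base value to -5.64. The summed neuron markers spanned 10689 to 15833 CPM under truncated SK3 against 11425 to 15009 CPM in control. Markers of Schwann and satellite glia spanned 11759 to 40587 CPM under truncated SK3 against 11318 to 25889 CPM in control, and supporting cell markers 1777 to 3962 CPM against 441.8 to 2232 CPM in the apex and 91.7 to 410.8 against 14.6 to 335.9 CPM in the base. Erythrocyte markers reached 4113 CPM under truncated SK3 and 1070 CPM in control. Oligodendrocyte markers reached 4752 CPM under truncated SK3 and 1911 CPM in control, and hair cell markers 537.3 and 178.1 CPM. The part of these cell types in the Nptx2 level was not tested.

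Under DN-HCN2 the Nptx2 level lay between those of the other two conditions, and the difference from control did not pass the test in edgeR. DN-HCN2 apex libraries had 9.73, 3.54, 3.82 and 6.05 CPM, a mean of 5.78 ± 2.86 (SD, n = 4). DN-HCN2 base libraries had 1.67, 1.48 and 10.0 CPM, a mean of 4.39 ± 4.86 (SD, n = 3), so that 1 of the 3 stood near the control level. The apex values overlapped those of control apex, whereas all 3 base values were below the lowest control base value, as in 9.03% of tested genes. Summed counts were 478 in DN-HCN2 and 1346 in control, which makes Nptx2 2.37-fold lower per scaled library total (exact 95% counting interval 2.13 to 2.63).

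Against control, DN-HCN2 gave Nptx2 a log2 fold change of -1.30 over both regions (SE 0.464, edgeR adjusted p = 0.0980, unadjusted p = 0.0109). In apex libraries alone it was -1.06 (SE 0.618) with an edgeR adjusted p of 0.533. In base libraries alone it was -1.54 (SE 0.693) with an edgeR adjusted p of 0.239, and without replicate 3 of that group it was -2.99 (edgeR adjusted p = 0.0515). In these 3 comparisons edgeR called 6.05%, 0.2% and 2.14% of tested genes, in that order. The call over both regions depended on the tool, since DESeq2 gave -1.28 (adjusted p = 0.0426) and limma-voom -1.77 (adjusted p = 0.0310). It depended on 1 library as well: without replicate 3 of DN-HCN2 base the value was -2.03 (edgeR adjusted p = 0.0140). Without both libraries over 1000 CPM of macrophage markers it was -1.98, with 1 library left in DN-HCN2 base. Nptx2 was chosen on a contrast with the same control libraries, which can by itself favour lower values here. None of these p-values is therefore independent of that choice.

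The constructs also stood apart from each other in Nptx2. All 6 truncated SK3 libraries were below all 7 DN-HCN2 libraries, a separation seen in 0.254% of tested genes with the regions pooled. The log2 difference, truncated SK3 against DN-HCN2, was -3.70 (SE 0.572), given without a test because it uses the libraries on which Nptx2 was chosen. Ordered by mean CPM, the 6 groups ran control base, control apex, DN-HCN2 apex, DN-HCN2 base, truncated SK3 base and truncated SK3 apex. Neighbours in this order overlapped in range, with the exception of DN-HCN2 base and truncated SK3 base.

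No difference between cochlear regions passed the test for Nptx2. Base libraries differed from apex libraries by 0.08 (log2, SE 0.610) in control, with an edgeR adjusted p of 1.00. The difference was -0.40 (SE 0.670, edgeR adjusted p = 0.859) with DN-HCN2 and 0.92 (SE 0.814, edgeR adjusted p = 0.782) with truncated SK3. The percent of genes called was 0% in control (0 genes by edgeR at 722 with an unadjusted p under 0.05, 83 by DESeq2 and 40 by limma-voom), 0.214% under DN-HCN2 and 0.0134% under truncated SK3. The interaction of construct with region was -0.48 (SE 0.905, edgeR adjusted p = 0.967) for DN-HCN2 and 0.84 (SE 1.01, edgeR adjusted p = 1.00) for truncated SK3. For these interactions edgeR called 0.00668% and 0% of genes, the latter with 545 genes at an unadjusted p under 0.05, 21 called by DESeq2 and 0 by limma-voom. Among 14968 tested genes, neither 722 nor 545 is more than the share of 0.05 that lies under this threshold without any difference. A p that misses the threshold does not show that the regions were alike. The truncated SK3 values here use the libraries on which Nptx2 was chosen. They rest on 10 Nptx2 counts in the apex and 18 in the base, so no conclusion is drawn from their p-values.

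Nptx1, the other secreted member, was detected in 14 of the 21 libraries and varied widely within groups. Control apex libraries had 0.619, 4.86, 0 and 2.50 CPM and control base libraries 0, 0.565, 1.42 and 0 CPM. DN-HCN2 apex libraries had 11.8, 13.6, 0.0829 and 0 CPM, and DN-HCN2 base libraries 0, 0.185 and 0 CPM. Truncated SK3 apex libraries had 0.0880, 10.5 and 11.5 CPM, and truncated SK3 base libraries 5.201, 0 and 1.55 CPM. High libraries (over 10 CPM) and libraries at or near 0 thus occurred side by side within DN-HCN2 apex and within truncated SK3 apex. Hair cell markers summed to 537.3 and 99.0 CPM in truncated SK3 apex replicates 2 and 3, and to 207.2 CPM in DN-HCN2 apex replicate 1. They summed to 4.35 CPM in DN-HCN2 apex replicate 2, where Nptx1 was highest, and to 80.5 CPM in replicate 3, where it was near 0. The part of hair cells in the Nptx1 level was not tested. In the 7 libraries at 0, a count of 0 allows levels of up to 0.201 to 0.275 CPM (3 counts of the scaled library total; counting error only).

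The means of Nptx1 were 1.996 ± 2.19 CPM (SD, n = 4) in control apex and 0.498 ± 0.673 (SD, n = 4) in control base. They were 6.38 ± 7.35 (SD, n = 4) in DN-HCN2 apex and 0.0618 ± 0.107 (SD, n = 3) in DN-HCN2 base. Truncated SK3 gave 7.37 ± 6.33 (SD, n = 3) in the apex and 2.25 ± 2.67 (SD, n = 3) in the base. Ordered by mean, every group overlapped its neighbour. Over both regions, the log2 fold change of Nptx1 was 2.01 (SE 1.34, edgeR adjusted p = 0.653) under truncated SK3 and -0.62 (SE 1.32, edgeR adjusted p = 0.832) under DN-HCN2. Truncated SK3 against DN-HCN2 gave 2.63 (SE 1.53, edgeR adjusted p = 0.447), in a comparison where 0.655% of genes were called. By region, truncated SK3 gave 1.88 (SE 1.88, edgeR adjusted p = 0.866) for apex and 2.14 (SE 1.92, edgeR adjusted p = 1.00) for base, and DN-HCN2 gave 1.67 (SE 1.78, edgeR adjusted p = 0.799) for apex and -2.92 (SE 2.36, edgeR adjusted p = 0.554) for base. With a library left out, the DN-HCN2 values of Nptx1 ranged from 0.99 to 2.57 (apex libraries) and from -5.74 to -1.57 (base libraries), and limma-voom gave 0.54 and -0.26. The opposite signs of the DN-HCN2 values were not shown to differ, since the interaction was -4.59 (SE 2.95, edgeR adjusted p = 0.814), and that of truncated SK3 was 0.26 (SE 2.54, edgeR adjusted p = 1.00). Nptx1 was called in none of the 12 comparisons by edgeR, DESeq2 or limma-voom, and its unadjusted p in edgeR was under 0.05 in 1 of them.

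That comparison was base against apex under DN-HCN2, where Nptx1 had 2 counts in the base libraries and 382 in the apex libraries. The ratio of these sums was 126.2-fold lower in the base (exact 95% counting interval 34.7 to 1045), and the edgeR test, which weighs the spread between libraries, gave a log2 fold change of -6.56 (SE 2.64) and an adjusted p of 0.317 (unadjusted p = 0.0218). Apex libraries 1 and 2 held 181 and 200 of the 382 counts, and apex libraries 3 and 4 held 1 and 0. The difference was thus smaller than the spread within the apex group allowed the test to call.

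**Figure D2:**
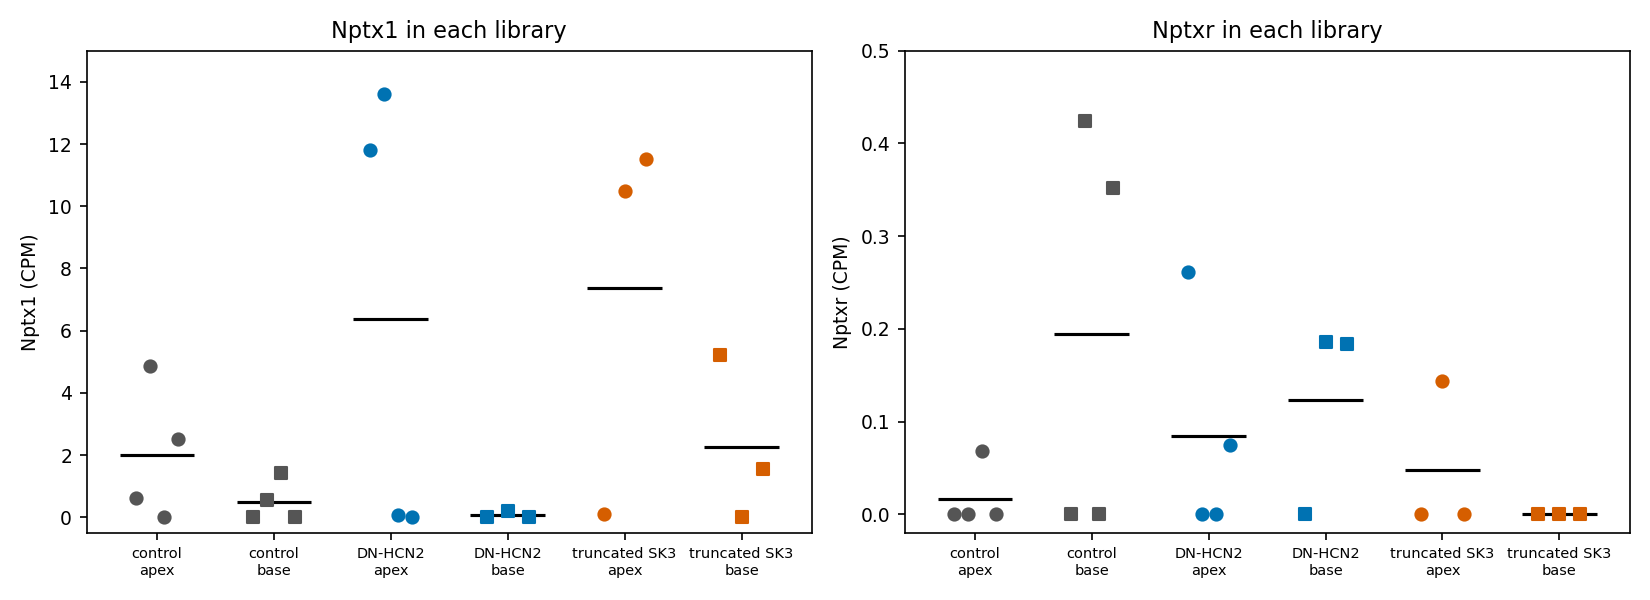
Nptx1 (left) and Nptxr (right) in each of the 21 libraries (points, CPM on linear axes that differ in range) by group, with the group mean as a line, circles for apex and squares for base. Nptx1 exceeds 10 CPM in 4 libraries and is at 0 in 7, and Nptxr never exceeds 0.424 CPM.

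Nptxr, the membrane-anchored member, was close to undetected. Its 23 counts came from 8 libraries, with at most 6 counts in any library, and 13 libraries had none. Control base replicates 2 and 4 were highest at 0.424 and 0.352 CPM, and all 3 truncated SK3 base libraries were at 0, where a count of 0 allows up to 0.242 to 0.306 CPM. Nptxr was too low to be tested, and a difference between groups was not detectable at this depth.

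The Nptxr count is also uncertain because of its neighbour. Npcd, the gene that joins Cbx6 and Nptxr exons, covers 890 of the 5170 exonic bases of Nptxr (17.2%) in GENCODE M21, and in RefSeq on GRCm38.p6 it runs from 79786351 to 79834333 on chromosome 15, across the whole RefSeq span of Nptxr (79786351 to 79804709). The line of Npcd was at 0 in all 21 libraries. Cbx6, a Polycomb protein gene that supplies the first Npcd exons, had 46.5 to 75.7 CPM in control. It had 33.8 to 94.1 CPM under DN-HCN2 and 77.3 to 142.3 CPM under truncated SK3. Which annotation was counted, and how reads that fit both genes were treated, are not given in the sources used here.

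Per kilobase of transcript, Nptx2 had the highest mean level of the members and Nptxr the lowest. Over all 21 libraries the mean was 2.59 CPM per kb for Nptx2, 0.589 for Nptx1 and 0.0161 for Nptxr. In control apex the means were 4.75 for Nptx2 and 0.383 for Nptx1. They were 0.108 and 1.41 in truncated SK3 apex and 0.203 and 0.431 in truncated SK3 base, so that the order of the means was the opposite there. Not every library followed this order. Truncated SK3 apex replicate 1 had 0.352 CPM of Nptx2 and 0.0880 CPM of Nptx1, and truncated SK3 base replicate 2 had 1.05 and 0 CPM. Nptx2 was chosen for its lower level under truncated SK3, so this is a description only. Across the 21 libraries, log2 levels of Nptx1 and Nptx2 had a Pearson r of -0.24 and a Spearman rho of -0.27, and r was -0.03 after group means were taken out (a description over libraries that share conditions).

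**Figure D3:**
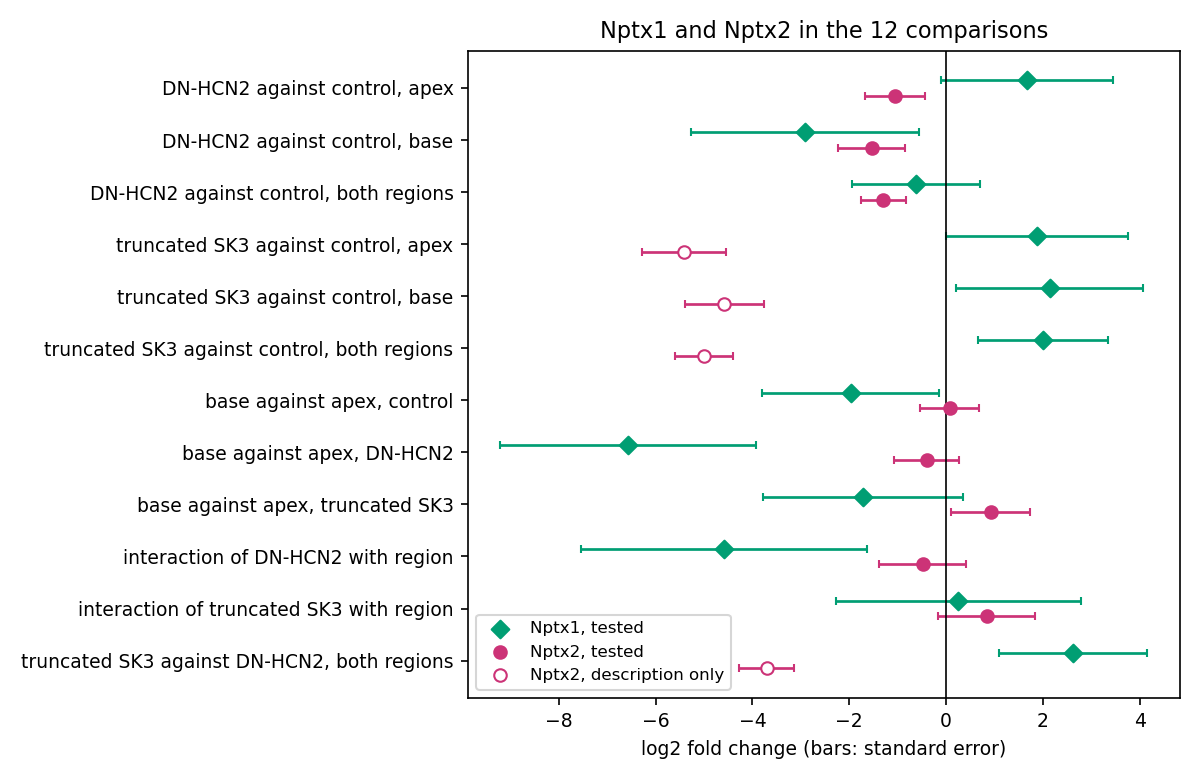
Log2 fold changes of Nptx1 (diamonds) and Nptx2 (circles) in the 12 comparisons, with the standard error as bars and open circles for comparisons on which Nptx2 was chosen and not tested. Nptx2 lies at -5.42 to -3.70 wherever truncated SK3 is compared with another condition and within 1.54 of 0 elsewhere, and standard errors of Nptx1 are 1.32 or more throughout.

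AMPA receptor subunits are the binding partners of the neuronal pentraxins, and the 3 abundant ones did not pass the test under either construct. The level of Gria2 was 120.5 ± 10.4 CPM (SD, n = 4) in the apex and 122.2 ± 38.5 (SD, n = 4) in the base of control, against 94.9 ± 7.55 (SD, n = 3) and 87.4 ± 33.3 (SD, n = 3) under truncated SK3. Over both regions this is a log2 fold change of -0.41 (SE 0.209) with an edgeR adjusted p of 0.516, and DN-HCN2 gave -0.53 (SE 0.201) with 0.122 from the same test. Gria3 gave -0.39 (SE 0.173, edgeR adjusted p = 0.433) under truncated SK3 and -0.25 (SE 0.166, edgeR adjusted p = 0.407) under DN-HCN2. Gria4, a subunit that Nptx2 is known to recruit in interneurons, gave -0.01 (SE 0.221, edgeR adjusted p = 1.00) under truncated SK3 and -0.13 (SE 0.213, edgeR adjusted p = 0.767) under DN-HCN2. Per kilobase the means over all libraries were 9.75 CPM for Gria2, 21.1 for Gria3 and 12.2 for Gria4, against 2.59 for Nptx2.

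Gria1 was sporadic like Nptx1. It was at 0 in 10 libraries, and its 218 counts included 109 in replicate 2 of truncated SK3 base and 62 in replicate 1 of truncated SK3 apex. DN-HCN2 held 2 of these counts in 7 libraries and control 37 in 8. Its edgeR adjusted p over both regions was 0.455 under truncated SK3 and 0.218 under DN-HCN2.

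Of 22 listed AMPA receptor genes and auxiliary subunits, which set receptor gating and surface number, 21 were tested. Under DN-HCN2 over both regions 1 was called higher and 1 lower, beside 2.45% of all tested genes called higher and 3.61% lower. DESeq2 called 1 higher and 2 lower, and limma-voom 1 higher and 5 lower, beside 1661 and 1483 genes called among all tested. Cacng5, a TARP-family auxiliary subunit, fell by 0.90 on the log2 scale (SE 0.222, edgeR adjusted p = 0.0203), with 145.3 ± 21.2 against 86.2 ± 23.3 CPM in apex libraries and 143.9 ± 54.5 against 69.3 ± 11.6 CPM in base libraries (SD, n = 3 or 4). Cnih2, a cornichon that promotes receptor export, rose by 0.97 (SE 0.252, edgeR adjusted p = 0.0285), with 26.9 ± 4.97 against 48.6 ± 9.31 CPM in apex libraries and 34.5 ± 12.7 against 72.9 ± 11.7 CPM in base libraries. Leaving out the 2 libraries rich in macrophage markers leaves 1 library in DN-HCN2 base, so calls are not read from that fit. Over all alternatives, that one included, the fold change stayed between -1.04 and -0.82 for Cacng5 and between 0.84 and 1.02 for Cnih2. The median of the 21 was -0.52, with 18 below 0, beside a median of 0.03 over all tested genes.

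Under truncated SK3 none of the 21 was called by edgeR, beside 0.327% of all tested genes called higher and 0.408% lower. An unadjusted p under 0.05 in edgeR was found for 4 of the 21, beside 1539 of the 14968 tested genes. DESeq2 and limma-voom each called 2 of the 21 lower, beside 320 and 305 genes called among all tested. Cacng5 stood at 78.9 ± 28.6 CPM (SD, n = 3) in the apex and 77.5 ± 29.1 (SD, n = 3) in the base, a log2 fold change of -0.89 (SE 0.232, edgeR adjusted p = 0.0914) that is close to its value under DN-HCN2. The list's median was -0.19, with 15 of 21 below 0, beside 0.01 over all tested genes. Both constructs were compared with the same control libraries, so these values are not independent of each other.

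Genes that process, bind or act with pentraxins made up a list of 14, of which 13 were tested. Under DN-HCN2 over both regions none was called higher and 2 were called lower, Adam10 and Ptprs, beside 2.45% and 3.61% of all tested genes. Adam10, a membrane metalloprotease, fell by 0.48 on the log2 scale (SE 0.130, edgeR adjusted p = 0.0345) with means of 163.9 against 131.4 CPM in apex libraries and 175.3 against 112.7 CPM in base libraries. Ptprs, a receptor phosphatase of the LAR family, fell by 0.58 (SE 0.144, edgeR adjusted p = 0.0212), with means of 285.7 against 227.9 CPM in apex libraries and 290.3 against 162.7 CPM in base libraries. The Adam10 call held in 12 of 24 alternatives and that of Ptprs in 19 of 24. One of these, without the macrophage-rich libraries, leaves DN-HCN2 base without replicates. In all 24 the fold change stayed between -0.54 and -0.40 for Adam10 and between -0.68 and -0.41 for Ptprs. Under truncated SK3 edgeR and DESeq2 called none of the 13 and limma-voom called 1 higher. Of the 14968 tested genes, these tools called 110, 320 and 305, in that order. In edgeR 3 of the 13 had an unadjusted p under 0.05, beside 1539 of all tested genes. The median was -0.07 for the list and 0.01 for all genes. Adam17, the protease that cleaves Nptxr, had a log2 fold change of 0.67 there (SE 0.232, edgeR adjusted p = 0.269) and was named after its value was seen.

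Other secreted synaptic organizers and their receptors were a list of 28, of which 25 were tested. Adam22, the receptor of the secreted LGI proteins that also sit at excitatory synapses, was the only call by edgeR in the 2 comparisons over both regions, in which 6.05% (DN-HCN2) and 0.735% (truncated SK3) of all tested genes were called. Under DN-HCN2 it fell by 1.18 on the log2 scale (SE 0.215, edgeR adjusted p = 0.00300), with 361.6 ± 45.6 against 215.99 ± 95.3 CPM in apex libraries and 322.3 ± 42.1 against 105.7 ± 46.2 CPM in base libraries (SD, n = 3 or 4). Leaving out the macrophage-rich libraries leaves DN-HCN2 base without replicates, so no call is read from that fit. Over all alternatives, that one included, the Adam22 value stayed between -1.37 and -0.89. Under truncated SK3 it had 219.5 ± 38.6 CPM (SD, n = 3) in the apex and 226.8 ± 54.3 (SD, n = 3) in the base, a log2 fold change of -0.61 (SE 0.220, edgeR adjusted p = 0.289). For truncated SK3, edgeR, DESeq2 and limma-voom called 0 of the 25, beside 110, 320 and 305 of the 14968 tested genes. In edgeR 3 of the 25 had an unadjusted p under 0.05, beside 1539 of all tested genes. The list's medians were -0.06 under DN-HCN2 and 0.06 under truncated SK3.

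Nptx2 was set here beside the late activity-regulated genes, many of which respond to sustained firing through transcription factors of the immediate early class. The 20 others listed were all tested, and over both regions 1 was called under truncated SK3 (0.735% of all tested genes) and 2 under DN-HCN2 (6.05%). Syt4, a synaptotagmin of dense-core and other secretory vesicles, rose under truncated SK3 by 0.70 (SE 0.137, edgeR adjusted p = 0.0133), with 139.2 ± 23.6 against 207.9 ± 28.01 CPM in apex libraries and 144.4 ± 27.3 against 254.5 ± 56.1 CPM in base libraries (SD, n = 3 or 4). Leaving out truncated SK3 base replicate 3 ended this call (edgeR adjusted p = 0.0590). Its direction was thus the opposite of that of Nptx2 in the same libraries, and the list's median was -0.31 with 12 of 20 below 0.

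Under DN-HCN2 the late list had Pim1 higher and Mfap3l lower. Pim1, a serine/threonine kinase, rose by 1.68 (SE 0.451, edgeR adjusted p = 0.0320), a call held in 8 of 15 fits with a library left out. Over all alternatives its fold change stayed between 1.13 and 1.92. Mfap3l, which encodes a membrane protein, fell by 1.24 (SE 0.185, edgeR adjusted p = 0.000487), with 122.4 ± 11.2 against 61.1 ± 23.3 CPM in apex libraries and 125.2 ± 31.7 against 44.9 ± 7.12 CPM in base libraries (SD, n = 3 or 4). Its call held in all 15 fits with a library left out and in the other alternatives with replicates in every group. Leaving out the macrophage-rich libraries leaves DN-HCN2 base without replicates, so no call is read from that fit. Bdnf, the neurotrophin gene often measured beside Nptx2 and named after its values were seen, gave 0.55 (SE 0.948, edgeR adjusted p = 0.915) under truncated SK3 and -1.60 (SE 0.986, edgeR adjusted p = 0.364) under DN-HCN2.

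Immediate early genes, the first to be transcribed after activity or stress, were tested for 23 of 24 members. Under DN-HCN2 3 were called higher and 0 lower by edgeR over both regions (all tested genes, 2.45% and 3.61%), with a median of 0.74 and 20 of 23 above 0. DESeq2 called 6 higher and limma-voom 7, both 0 lower, beside 1661 and 1483 genes called among all tested. With a library left out, edgeR called 3 to 7 higher. Jund rose by 1.91 (SE 0.377, edgeR adjusted p = 0.00660), Ier2 by 1.40 (SE 0.285, edgeR adjusted p = 0.00737) and Egr1 by 0.86 (SE 0.208, edgeR adjusted p = 0.0195). Each kept its call in all 15 fits with a library left out and in the other alternatives with replicates in every group. The fit without the macrophage-rich libraries leaves DN-HCN2 base without replicates, so no call is read from it. Under truncated SK3 edgeR called 0 of the 23, beside 0.735% of all tested genes. An unadjusted p under 0.05 in edgeR was found for 2 of the 23, beside 1539 of the 14968 tested genes. DESeq2 and limma-voom each called 1 lower, beside 320 and 305 genes called among all tested. Of the 23, 19 were above 0, and the median was 0.45, beside 0.01 over all genes. Egr1 there had a log2 fold change of 0.37 (SE 0.215, edgeR adjusted p = 0.590), Jund 0.74 (SE 0.384, edgeR adjusted p = 0.532) and Ier2 0.51 (SE 0.293, edgeR adjusted p = 0.582). Egr2 of this list is also a marker of Schwann cells.

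**Figure D4:**
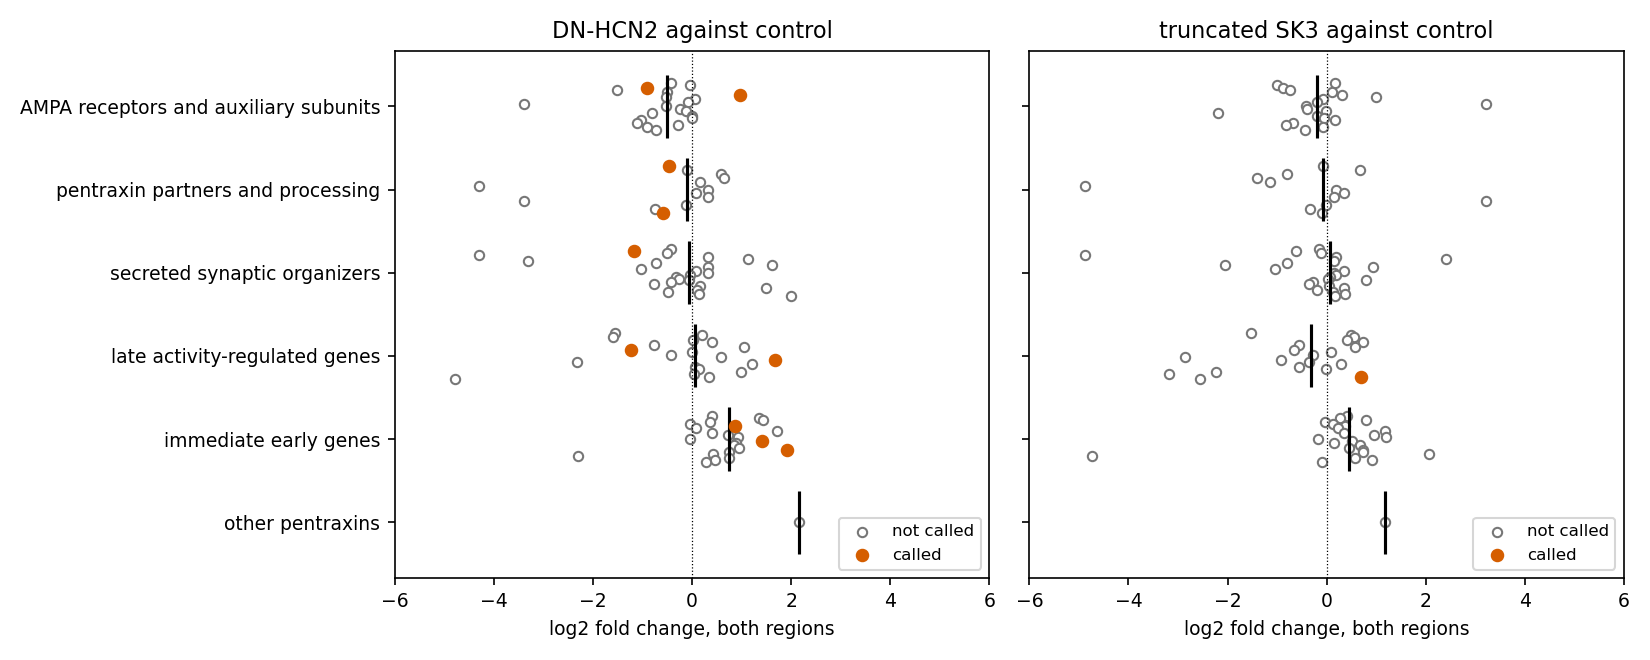
Log2 fold changes over both regions for every tested gene of the 6 lists, under DN-HCN2 (left) and truncated SK3 (right), with genes called at a false discovery rate of 0.05 filled and the list's median as a line. Immediate early genes have medians of 0.74 and 0.45, AMPA receptor genes -0.52 and -0.19, and few genes of any list are called.

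Among the other pentraxins, the short pentraxins Crp and Apcs and the long pentraxin Ptx4 had no counts in any library. Ptx3, a long pentraxin of innate immunity, had counts in all 21 libraries and a mean of 2.56 CPM per kb. Its libraries ranged from 0.353 to 9.01 CPM in control, 1.76 to 21.4 CPM under DN-HCN2 and 1.18 to 12.3 CPM under truncated SK3, so that all 3 conditions overlapped. Against control, Ptx3 gave 2.15 (log2, both regions, SE 0.704) under DN-HCN2 with an edgeR adjusted p of 0.0696, and DESeq2 called it. Under truncated SK3 it gave 1.17 (SE 0.713, edgeR adjusted p = 0.609).

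The genes whose levels followed Nptx2 most closely over the 21 libraries were Cntnap5c, Tuba1c, Pex19, Igsf21 and Pygm, with Pearson r of 0.87, 0.86, 0.82, 0.81 and 0.80 on log2(CPM + 1) among 10869 genes. They encode a contactin-associated cell surface protein, an alpha-tubulin, a peroxisome import factor, an immunoglobulin-superfamily synaptic protein and muscle glycogen phosphorylase. The libraries share conditions, and with group means taken out the values were 0.56, 0.64, 0.57, 0.40 and 0.31. In control libraries Tuba1c ran from 134.0 to 220.8 CPM, and under truncated SK3 from 71.2 to 99.4 CPM. Pex19 ran from 127.1 to 190.3 CPM in control and from 62.2 to 81.4 CPM under truncated SK3, Pygm from 100.9 to 260.4 and from 29.9 to 75.8 CPM, and Igsf21 from 54.01 to 134.7 and from 32.4 to 51.6 CPM. Cntnap5c, with the highest r, ran from 14.99 to 28.1 CPM in control and from 8.62 to 14.0 CPM under truncated SK3. In each of these 5 genes the truncated SK3 libraries lay below all control libraries, as in 0.681% of tested genes, and since the genes were picked for likeness to Nptx2 this is a description only.

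**Figure D5:**
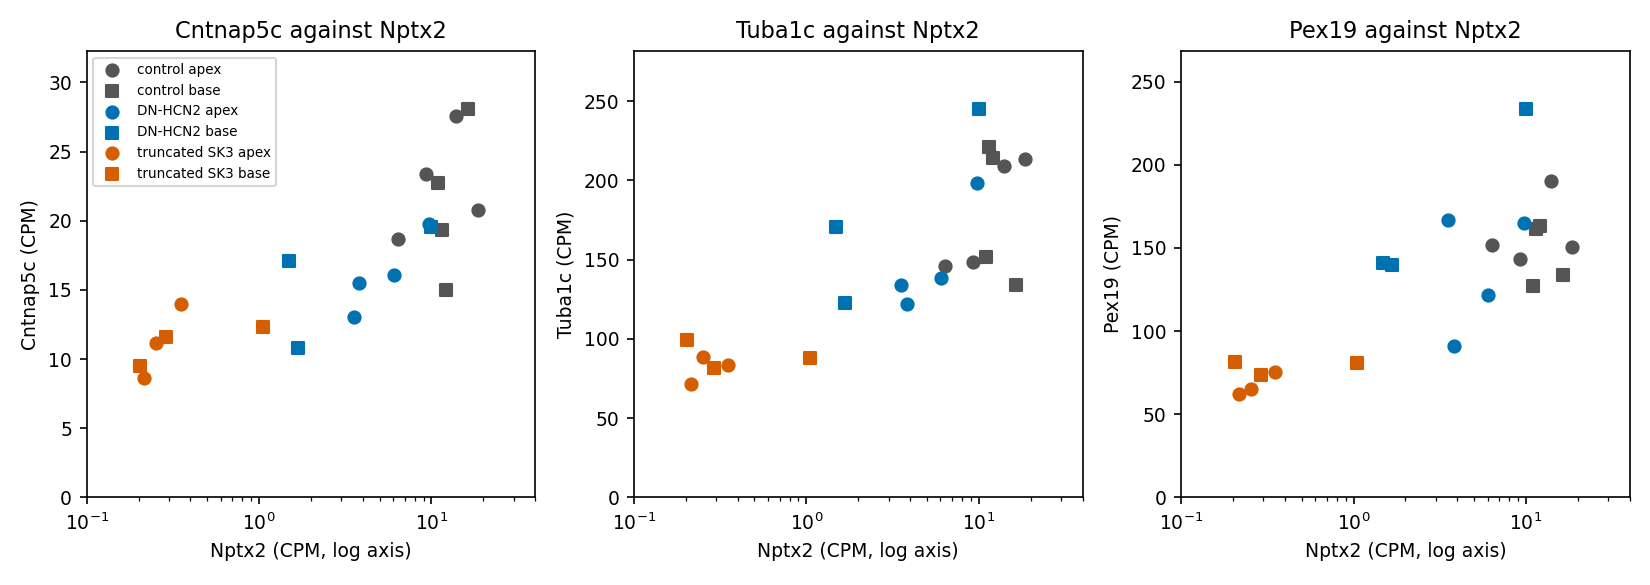
CPM of Cntnap5c, Tuba1c and Pex19 (linear axes) against CPM of Nptx2 (log axis) in the 21 libraries, coloured by condition, circles for apex and squares for base. The 6 truncated SK3 libraries form a separate low cluster in each panel, so much of each r (0.87, 0.86 and 0.82) lies between conditions.

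For Nptx1 the closest genes were Lrrc75a, Fbxo32, Igfbp3, Fcrlb and Far1, with Pearson r of 0.78, 0.72, 0.71, 0.69 and 0.69. With group means taken out, r was 0.69, 0.65, 0.79, 0.62 and 0.67. Fcrlb had 1.63, 71.9, 0.339 and 10.4 CPM in control apex, 176.02, 5.99, 47.8 and 0.598 CPM in DN-HCN2 apex, 0.616, 473.8 and 54.5 CPM in truncated SK3 apex and at most 3.21 CPM in base libraries. In each apex group a single library was far above the rest. The same libraries had the highest hair cell marker sums of their groups. These were 178.1 CPM in control apex replicate 2, 207.2 CPM in DN-HCN2 apex replicate 1 and 537.3 CPM in truncated SK3 apex replicate 2. The part of hair cells in the Fcrlb level was not tested. Fbxo32, a ubiquitin ligase subunit, had means of 29.8, 42.2 and 63.5 CPM in the apex of control, DN-HCN2 and truncated SK3, and of 20.3, 25.3 and 22.4 CPM in the base.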

How the data were processed

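The authors deposited 1 table of read counts per gene symbol for 21 Smart-seq2 libraries. Trimmomatic, HISAT2 and DESeq2, and the builds GRCm38 and mm10, are named without versions per the submitters' processing notes. Which program counted the reads, and on which annotation, is not given in the sources used here. The counts as deposited are whole and not normalized.

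Genes passing filterByExpr (14968) were scaled by TMM and tested in edgeR 4.0.16 (R 4.3.3; glmQLFit with robust set, glmQLFTest) over 6 groups. The 12 contrasts were adjusted by Benjamini-Hochberg over all tested genes, and genes were called at a false discovery rate of 0.05. CPM are counts per 1000000 of the TMM-scaled library total. "Both regions" is the mean of the 2 regional effects. Standard errors follow from the F statistic. Lists were described by counts and medians only. Named were the members, Gria1 to Gria4, in each list the called genes with the smallest p (up to 4, otherwise up to 3 by level), and the 5 genes most like a member among those with a group mean of at least 10 CPM, predicted genes left out. Npcd and Cbx6 were added for their overlap with Nptxr. The members and lists were chosen with earlier results of these data known. The code was tested on simulated data.

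Alternatives were RLE scaling, no low-count filter, 10 CPM in 3 libraries, DESeq2 1.42.0, limma-voom (limma 3.58.1), only the groups compared, a replicate block, each library left out, and, chosen after seeing the data, libraries rich in macrophage or supporting cell markers left out. Leaving out the macrophage-rich libraries leaves DN-HCN2 base without replicates. Sequences and coordinates are from GENCODE M21; figures from matplotlib 3.10.9.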

Additional observations from a re-analysis of the deposited data

Results flagged for a closer look

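In control apex, 1 library stood apart from the other 3 in Nptxr, at 0.0678 CPM against 0, a gap that is a single count. Ptx3 in control apex had 1 library at 9.01 CPM against 1.32, 1.62 and 2.15 CPM in the others. These were the gaps above Dixon's 95% critical value for 4 libraries among 27 groups checked, and chance flags about 1 in 20 groups.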

How the results depend on the processing

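The 20 tested fold changes of Nptx1 and Nptx2 were refitted in 383 alternatives, of which 367 kept both the direction and the side of the threshold. The 4 of Nptx2 that were described without a test kept their direction in all 77, and 76 moved by less than the spread between libraries. The Nptx2 value under truncated SK3 over both regions ranged from -5.53 to -4.82, and in the base from -5.64 to -4.22 with a library left out. Nptx2 under DN-HCN2 over both regions passed the threshold with DESeq2 (-1.28), with limma-voom (-1.77) and without DN-HCN2 base replicate 3 (-2.03); with a library left out it ranged from -2.03 to -1.09. Nptx1 under DN-HCN2 over both regions turned to 0.14 with limma-voom and ranged from -2.04 to 0.050 with a library left out. Values near 0 turned sign with a library left out: Nptx2 base against apex ranged from -0.16 to 0.34 in control, from -1.85 to 0.018 under DN-HCN2 and from -0.13 to 1.28 under truncated SK3, and the interaction of truncated SK3 with region from -0.20 to 1.21 for Nptx2 and from -1.28 to 1.60 for Nptx1. The cause was not tested.

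Under DN-HCN2 over both regions edgeR called 906 genes, DESeq2 1661 and limma-voom 1483, and under truncated SK3 110, 320 and 305, or 244 with only the groups compared. Over all alternatives the called genes ranged from 475 to 1661 and from 61 to 320 in these comparisons, and from 16 to 232 (DN-HCN2 apex, 30 as reported), 103 to 1101 (DN-HCN2 base, 320), 19 to 156 (truncated SK3 apex, 38), 11 to 81 (truncated SK3 base, 22) and 7 to 540 (truncated SK3 against DN-HCN2, 98). Base against apex, they ranged from 0 to 83 in control (0 as reported), 0 to 379 under DN-HCN2 (32) and 0 to 212 under truncated SK3 (2), and for the interactions from 0 to 123 (DN-HCN2, 1) and from 0 to 21 (truncated SK3, 0). Deviations of same-numbered libraries had correlations from -0.15 to 0.25 over 48 pairs, 6 above 0.1. Apex and base of a condition gave a median of 0.043 and a highest value of 0.13 over 10 pairs, 2 of them above 0.1. Pairs of another number gave a median of 0.00099 over 135 pairs, 11 above 0.1. Low correlations over all tested genes do not show that equal numbers come from different animals, so pairing remains unknown. With the replicate block within a condition, base against apex called 6 genes in control, 3 under DN-HCN2 and 11 under truncated SK3. With the replicate block the counts were 602 and 69, Nptx2 was at -1.32 under DN-HCN2 (edgeR adjusted p = 0.164) and -5.02 under truncated SK3, and of the called list genes Adam10 and Ptprs were lost. With 1 library left out, calls were lost for Cnih2 (control apex 1 or 3, DN-HCN2 apex 4, DN-HCN2 base 2 or 3), Ptprs (control base 4, DN-HCN2 base 2 or 3), Pim1 (control apex 1 or 2, control base 1, 2 or 3, DN-HCN2 apex 4, DN-HCN2 base 3) and Adam10 (9 of 15 libraries). Counts of 2 to 13 per library in Nptx2 under truncated SK3 limit the precision of its level there.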
